A study of Mus musculus with 18 samples.

Results

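Nucleotide, folate and serine synthesis genes were examined as a group of 34 in purified splenic B cells of the mouse that were stimulated with lipopolysaccharide (LPS), the bacterial cell wall component that drives B cells to divide through TLR4. The group was chosen by function. It holds the enzymes that make serine, pass its carbon to folate, and build, salvage and reduce purine and pyrimidine nucleotides. All 34 were found among the 16545 genes of the expression table. The libraries came from control mice (CON), which carry a B cell Cre allele alone, and from Zbtb24 B-CKO mice, which carry the same Cre allele with Zbtb24 loxp/loxp and lack exon 2 of Zbtb24, a zinc finger protein of the BTB family, in cells that express Cre. Both genotypes therefore carried 1 Cre allele, and the deletion was limited to the B lineage. Cells were taken on day 0 (D0), day 1 (D1) and day 2 (D2) of LPS culture, from 3 mice per genotype and day, which gave 18 libraries. The ages of these mice were not given in the sources used here.

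Levels are in FPKM, the fragments of a gene scaled by the length of its transcripts and by the mapped fragments of the library. Because of the scaling by length, levels of different genes can be set beside each other. Changes are differences of mean log2(FPKM + 1) from limma with Benjamini-Hochberg adjustment over all genes of the fit, and a gene was called higher or lower at an adjusted p under 0.05. In bulk RNA a change in the share of cells that express a gene and a change in its RNA per cell cannot be told apart.

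A resting B cell keeps small nucleotide pools. A dividing one has to copy its genome and make large amounts of ribosomal RNA, so it needs serine for one-carbon units, formyl- and methylene-tetrahydrofolate for the purine ring and for thymidylate, and ribonucleotide reductase for all deoxynucleotides. Many genes of these pathways are known targets of MYC, of ATF4 or of E2F factors in proliferating cells.

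Promoter windows of the RefSeq gene starts (GRCm38.p6, 250 bases before and 50 after the start) were available for 32 of the 34 genes, as 38 windows. Pfas and Dhodh had no entry. The E-box CACGTG, the site of MYC with MAX and of other bHLH proteins, was present in 18.4% of these windows and in 7.15% of all 32851 windows. It lay in Atic, Dtymk, Impdh2, Paics and Tyms and in both windows of Nme1. The CCAAT box, searched on both strands, was present in 39.5% of the windows of the group and 37.4% of all windows. The ATF4 composite TGATGNAA was found in 2.63% against 3.97%, in Prps1. The E2F sites TTTGGCGC and TTTCGCGC were in 0 of the 38 windows and in 0.813% of all windows. None of these motifs overlapped another. A match describes the letters only and does not show binding.

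Upstream stretches are printed for the genes that held 2 of these motif kinds before their start and had a stretch almost free of annotated exons (at most 6 bases). Each is 150 bases long, reads 5′ to 3′ on the strand of the gene, and has the motifs in capitals. The Atic stretch (chr1:71557006-71557155, plus strand) ends at the last base before the gene start, with its E-box 7 to 2 bases before it, and a CCAAT box lay farther upstream. The Dtymk stretch (chr1:93801935-93802084, minus strand) holds an E-box and, on the opposite strand, a CCAAT box. The Prps1 stretch (chrX:140456433-140456582, plus strand) holds the ATF4 composite 170 to 163 bases before the start and a CCAAT box.
Atic: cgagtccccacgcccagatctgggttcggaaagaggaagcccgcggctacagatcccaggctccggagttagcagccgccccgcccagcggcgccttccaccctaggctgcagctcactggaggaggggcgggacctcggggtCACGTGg
Dtymk: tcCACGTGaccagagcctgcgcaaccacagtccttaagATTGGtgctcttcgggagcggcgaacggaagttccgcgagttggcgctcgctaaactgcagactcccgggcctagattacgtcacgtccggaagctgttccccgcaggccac
Prps1: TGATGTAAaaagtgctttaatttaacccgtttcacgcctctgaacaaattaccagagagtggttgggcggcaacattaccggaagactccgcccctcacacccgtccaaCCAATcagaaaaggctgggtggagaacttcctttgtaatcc

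Some facts of the libraries bear on the results. Zbtb24 was at 37.1 to 49.6 FPKM in control and 10.53 to 14.3 FPKM in B-CKO cells at D0, and at 15.7 to 18.8 against 10.4 to 11.7 FPKM at D1, so each B-CKO library was below each control library of its day. The 6 B cell markers summed to 3944 to 5230 FPKM at D0, 2045 to 2530 at D1 and 2379 to 2648 at D2. The 8 T cell markers summed to 166 to 223 FPKM at D0, of which Cd2, a gene that mouse B cells also express, made up 143 to 194 FPKM and Lck 16.2 to 22.7 FPKM. The other 6 were each at most 3.01 FPKM at D0, and at D1 and D2 Cd3e, Cd3d, Cd3g, Cd4, Cd8a and Cd5 were each under 1 FPKM. Myeloid markers summed to at most 7.86 FPKM, NK markers to at most 2.35, and erythroid markers to at most 46.3 FPKM at D0 and 3.88 later. The part of these marker shifts in the changes over time was not tested. Replicate libraries differed more at D0 than later: among genes of at least 1 FPKM the median SD on the log2 scale was 0.17 in control and 0.16 in B-CKO cells at D0, and 0.06 and 0.05 at D1.

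After 1 day of LPS nearly the whole group had risen in control cells. Of the 34 genes, 32 were called higher than at D0 (adjusted p from 4.97e-06 to 0.00779, SE from 0.05 to 0.21), 1 was called lower (Ctps2) and 1 was not called (Impdh1). Over all 15531 genes tested, 26.7% were called higher and 30.7% lower. The median change of the group was 2.00 on the log2 scale, against -0.02 over all genes tested. The summed level of the 34 genes went from 862 ± 29.1 FPKM (SD, n = 3) at D0 to 3603 ± 123 at D1. In B-CKO cells the counts were also 32 higher, 1 lower and 1 not called, with a median change of 2.02, where 27.5% of all genes tested were called higher and 32.3% lower. Rescaling the libraries to TPM moved the median change of genes of at least 1 FPKM from 0.02 to -0.14 in control and from 0.01 to -0.14 in B-CKO cells, and the counts of the group stayed at 32 and 1.

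**Figure D1:**
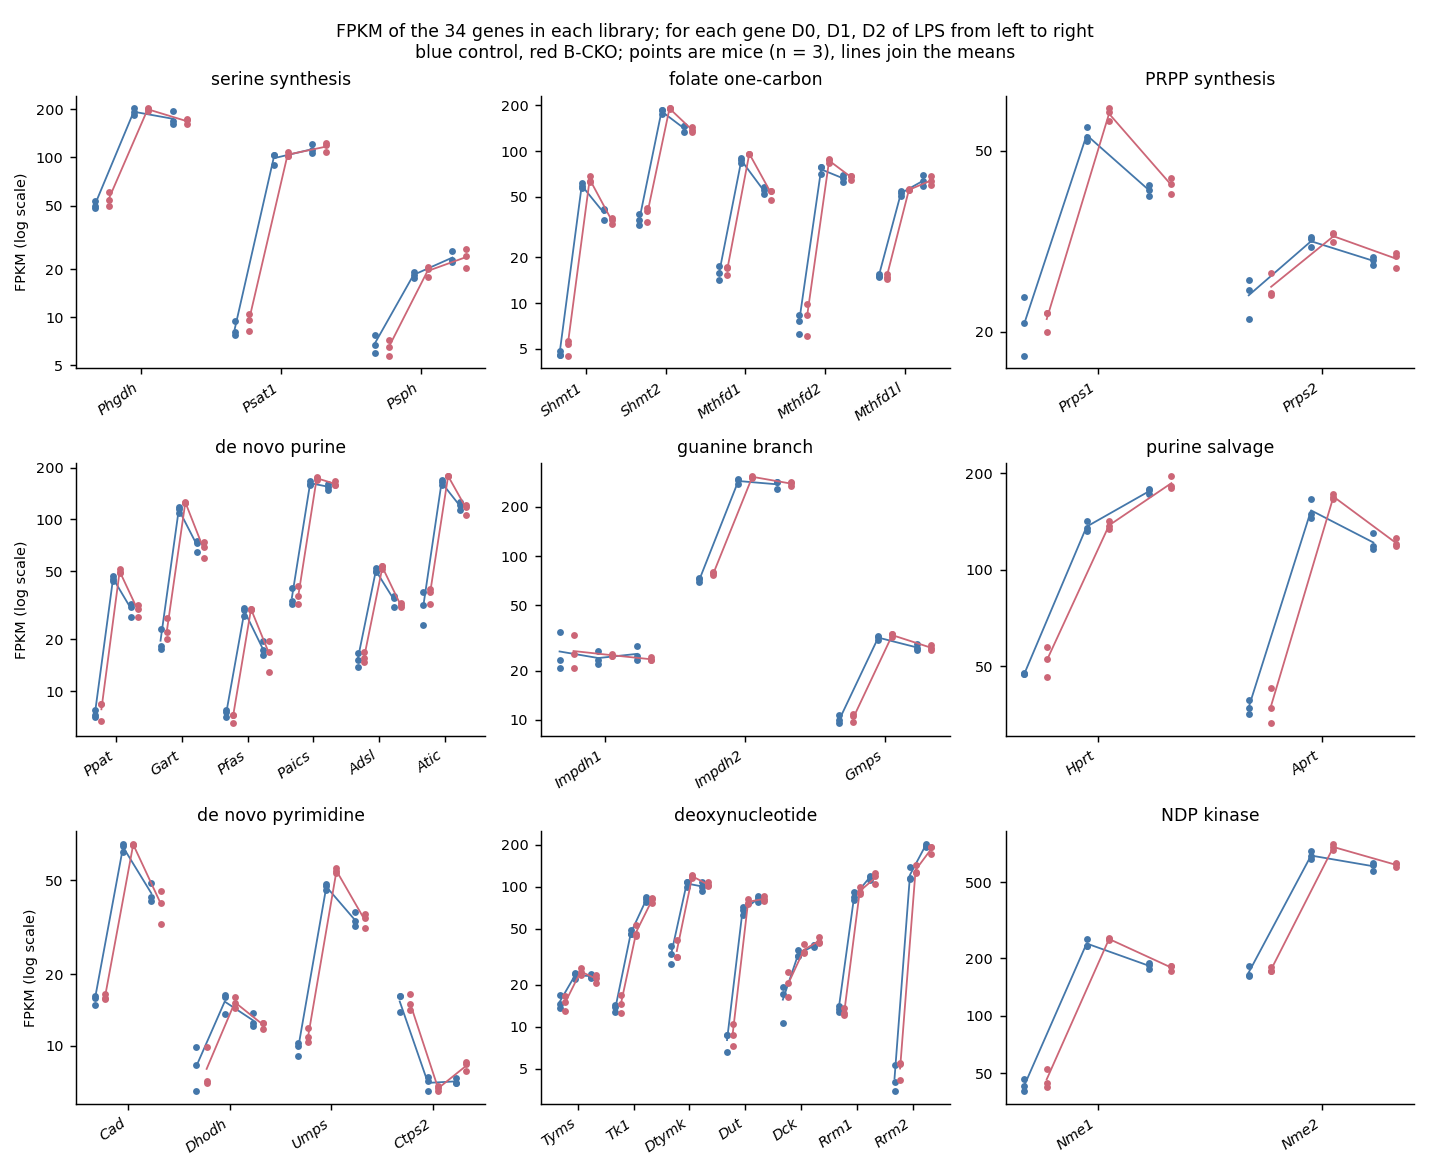
FPKM (log axis) of the 34 genes, in 9 panels by role. For each gene D0, D1 and D2 run from left to right, points are single mice (3 per group, blue control and red B-CKO) and lines join the group means. Levels at D1 stood above those at D0 for every gene but Ctps2 and Impdh1, and the curves then parted into genes that went on rising, among them Rrm2 and Tk1, and genes that fell back, among them Shmt1, Gart and Cad.

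The enzymes that make serine from a glycolytic intermediate rose together at D1. Phgdh, the first and committed enzyme, was at 49.6, 53.5 and 48.3 FPKM in the 3 control mice at D0 and at 184, 203 and 193 FPKM at D1. Psat1, the transaminase of the second step, went from 9.51, 8.06 and 7.78 FPKM to 89.4, 103 and 103 FPKM. Psph, the phosphatase that releases serine, went from 6.83 ± 0.88 FPKM to 18.4 ± 0.73 (SD, n = 3). The D0 and D1 values did not overlap for any of the 3 genes. Psat1 had the largest change of them (3.40 ± 0.10 SE on the log2 scale, adjusted p = 5.65e-06), and Phgdh and Psph changed by 1.92 and 1.32.

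Serine hands its side carbon to folate through a cytosolic hydroxymethyltransferase (Shmt1) and a mitochondrial one (Shmt2). Shmt1 (chr11:60788897-60811265, minus strand) was at 4.59, 4.55 and 4.82 FPKM at D0 and at 57.2, 61.7 and 59.3 FPKM at D1, a change of 3.42 ± 0.06 SE (adjusted p = 4.97e-06) and the second largest of the 34 genes. Shmt2 went from 35.6 ± 3.01 to 183 ± 6.46 FPKM, a smaller change (2.33) from a higher level. The mitochondrial share of the pair was therefore lower after stimulation: the Shmt2 to Shmt1 ratio of FPKM was 6.79 to 8.43 in control mice at D0, 3.01 to 3.17 at D1 and 3.53 to 3.77 at D2. Mthfd2, the mitochondrial dehydrogenase and cyclohydrolase that is low in most resting adult tissues, went from 8.30, 7.68 and 6.29 FPKM to 70.7, 78.5 and 78.5 FPKM (3.20 ± 0.11 SE, adjusted p = 6.49e-06). Mthfd1, the cytosolic enzyme with 3 activities, went from 15.8 ± 1.72 to 87.0 ± 3.36 FPKM, and Mthfd1l, the mitochondrial formate-releasing enzyme, from 15.1 ± 0.38 to 52.9 ± 2.08 FPKM. All 5 genes were called higher.

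The purine ring is built on phosphoribosyl pyrophosphate (PRPP), made by Prps1 and Prps2. Prps1 went from 17.8, 21.0 and 23.9 FPKM at D0 to 53.5, 56.4 and 52.6 FPKM at D1 (1.34 ± 0.11 SE, adjusted p = 0.000107). Prps2 rose less, from 24.1 ± 2.40 to 31.7 ± 0.83 FPKM (0.39). Prps2 was above Prps1 in 2 of the 3 control mice at D0 and in none at D1: the Prps2 to Prps1 ratio was 0.895 to 1.47 at D0 and 0.573 to 0.597 at D1.

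The 6 genes of the de novo purine pathway rose by 1.67 to 2.49 on the log2 scale at D1, with adjusted p between 5.17e-06 and 4.57e-05. Gart, which carries 3 of the activities in 1 protein, had the largest change (2.49 ± 0.11 SE, adjusted p = 1.09e-05): it was at 23.0, 18.4 and 17.5 FPKM at D0 and at 109, 115 and 118 FPKM at D1. Ppat, the enzyme of the committed step, followed with 2.47, from 7.34 ± 0.37 to 45.3 ± 1.70 FPKM. Atic, the last enzyme before IMP, went from 31.3 ± 6.89 to 164 ± 5.60 FPKM and Paics from 39.7, 32.3 and 33.3 to 162 ± 5.10 FPKM. Pfas went from 7.45 ± 0.40 to 29.2 ± 1.55 FPKM and Adsl, which acts in this pathway and in the making of AMP, from 15.2 ± 1.44 to 50.3 ± 1.36 FPKM. The values of D0 and D1 did not overlap for any of the 6. Ppat and Paics lie head to head on chromosome 5 with 272 annotated exonic bases in common on opposite strands. Gart shares 1014 exonic bases with Gm15964, Psph 452 with Cct6a, Umps 213 with Gm15829 and Shmt1 184 with Smcr8, each on the opposite strand. Whether fragments were counted by strand is not given in the sources used here.

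From IMP the guanine branch runs through IMP dehydrogenase and GMP synthetase. The genes of the 2 IMP dehydrogenases behaved differently. Impdh2 went from 69.8, 73.4 and 72.7 FPKM at D0 to 274, 296 and 291 FPKM at D1 (1.98 ± 0.05 SE, adjusted p = 5.17e-06). Impdh1 (chr6:29200436-29216364, minus strand) was at 20.7, 23.2 and 34.6 FPKM at D0, at 21.9, 26.4 and 23.3 FPKM at D1 and at 23.2, 24.5 and 28.3 FPKM at D2, so its groups overlapped on every day. Its D1 change was -0.10 ± 0.19 SE (adjusted p = 0.68), and without control mouse 3 at D0 the estimate was 0.11. The Impdh2 to Impdh1 ratio went from 2.10 to 3.37 at D0 to 11.2 to 12.5 at D1. Gmps went from 10.1 ± 0.59 to 31.8 ± 0.76 FPKM (1.57).

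The salvage enzymes that return free bases to nucleotides rose as well. Hprt, for hypoxanthine and guanine, went from 47.2, 47.6 and 47.1 FPKM to 135, 142 and 132 FPKM (1.51). Aprt, for adenine, went from 39.2, 37.0 and 35.4 FPKM to 149, 166 and 145 FPKM and had the larger change of the pair (2.01 ± 0.07 SE, adjusted p = 7.08e-06).

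In pyrimidine synthesis the genes for the steps to UMP rose and one gene for the step to CTP fell. Umps (chr16:33954782-33967038, minus strand), the last enzyme to UMP, went from 9.04, 9.96 and 10.2 FPKM at D0 to 45.3, 48.0 and 47.3 FPKM at D1 (2.16 ± 0.07 SE, adjusted p = 6.23e-06). Cad, which carries the first 3 activities, went from 15.7 ± 0.72 to 68.9 ± 2.96 FPKM (2.07). Dhodh, the mitochondrial enzyme between them, rose less, from 8.22 ± 1.74 to 15.4 ± 1.48 FPKM (0.84). Ctps2 (chrX:162901268-163034541, plus strand), 1 of the 2 CTP synthetases, was at 16.1, 13.8 and 16.2 FPKM at D0 and at 7.37, 6.44 and 7.10 FPKM at D1. It fell by 1.04 (SE 0.10, adjusted p = 0.000188) and was the only gene of the 34 called lower. Its partner Ctps, which is not among the 34, was at 8.08 to 9.10 FPKM at D0 and 53.1 to 59.4 FPKM at D1 in the control mice.

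The genes of deoxynucleotide supply covered the widest range. Rrm2 (chr12:24708254-24714146, plus strand), the small subunit of ribonucleotide reductase that is made around S phase, was at 4.03, 5.30 and 3.46 FPKM at D0 and at 113, 115 and 137 FPKM at D1. That was the largest change of the 34 genes (4.55 ± 0.15 SE, adjusted p = 6.46e-06) and took Rrm2 from the lowest level of the group at D0 to rank 3 at D2. Rrm1, the large subunit, went from 13.4 ± 0.70 to 85.5 ± 6.10 FPKM. The Rrm2 to Rrm1 ratio was 0.260 to 0.415 at D0, 1.37 to 1.49 at D1 and 1.64 to 1.75 at D2. Dut, which removes dUTP and feeds dUMP to thymidylate synthesis, went from 8.80, 8.75 and 6.56 FPKM to 62.5, 68.1 and 71.5 FPKM (2.93). Tk1, the S phase thymidine kinase, went from 13.6 ± 0.90 to 46.9 ± 2.17 FPKM and Dtymk, the thymidylate kinase, from 33.1 ± 4.90 to 105 ± 5.56 FPKM. Dck, the deoxycytidine kinase, went from 17.1, 19.2 and 10.6 FPKM to 32.0, 32.1 and 35.4 FPKM (1.08). Tyms, the thymidylate synthase, had the smallest change of the 7 (0.61 ± 0.09 SE, adjusted p = 0.00150), from 15.0 ± 1.59 to 23.3 ± 1.08 FPKM.

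The nucleoside diphosphate kinases, which pass phosphate from ATP to the other nucleotides, had the highest levels. Nme2 was at 163, 182 and 162 FPKM at D0, 684, 729 and 660 at D1 and 630, 577 and 615 at D2, and it was the most abundant of the 34 genes on each day. Nme1 went from 43.2 ± 3.12 to 239 ± 11.4 FPKM and had the larger change of the 2 genes (2.44 ± 0.07 SE, adjusted p = 5.65e-06, against 2.03), so the Nme2 to Nme1 ratio went from 3.50 to 4.24 at D0 to 2.84 to 2.94 at D1. The genes are neighbours on chromosome 11 and 80.3% identical over 456 aligned coding bases (GENCODE M21, GRCm38). Their first 120 coding bases are shown to mark where they agree and differ. Capitals mark the 16 positions at which they differ. The longest run of identical coding bases was 29, which is shorter than the reads named in the study's methods. The annotation also holds a gene model, Gm20390, that shares 418 exonic bases with Nme1 and 573 with Nme2 on the same strand. Whether fragments of one of these genes were counted for another was not tested.
Nme1: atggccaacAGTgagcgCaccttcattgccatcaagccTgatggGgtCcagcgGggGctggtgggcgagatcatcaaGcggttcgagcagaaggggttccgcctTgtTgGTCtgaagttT
Nme2: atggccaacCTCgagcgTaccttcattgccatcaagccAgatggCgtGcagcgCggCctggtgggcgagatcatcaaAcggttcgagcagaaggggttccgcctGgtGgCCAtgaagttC

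The levels spread over a range that moved with time. In control cells at D0 the order ran from Nme2, Impdh2, Phgdh, Hprt and Nme1 (169, 72.0, 50.5, 47.3 and 43.2 FPKM) down to Shmt1 and Rrm2 (4.65 and 4.26 FPKM). At D1 Nme2, Impdh2 and Nme1 led, and Psph, Dhodh and Ctps2 were lowest (18.4, 15.4 and 6.97 FPKM). At D2 Rrm2 stood behind Nme2 and Impdh2 alone, at 197 FPKM. Neighbours in the order overlapped in 26 pairs at D0, 18 at D1 and 20 at D2, so most ranks next to each other were not separated by the mice.

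Between D1 and D2 the group split by role. This comparison uses the D1 libraries of the D1 against D0 comparison again. In control cells 8 genes were called higher (Psph, Mthfd1l, Hprt, Tk1, Dut, Dck, Rrm1 and Rrm2), 18 lower and 8 not called, where 20.1% of 15178 genes tested were called higher and 24.8% lower. With median ratio scaling 9 were called higher and 14 lower, with a median change of -0.10, and of all genes 3652 were called higher and 3012 lower. Of the 7 genes of deoxynucleotide supply, 5 were called higher and 0 lower. Of the 13 genes of folate, PRPP and de novo purine synthesis, 11 were called lower and 1 higher. The median change of the group was -0.17, against -0.00 over all genes tested. The purine pathway summed to 565 ± 17.3 FPKM at D1 and 427 ± 25.5 at D2 (SD, n = 3), while deoxynucleotide supply summed to 483 ± 32.7 and 638 ± 17.9 FPKM.

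The rises at D2 were led by the S phase genes. Tk1 (chr11:117815519-117826087, minus strand) went from 45.6, 45.7 and 49.4 FPKM at D1 to 77.6, 85.1 and 81.1 FPKM at D2, a change of 0.78 ± 0.05 SE (adjusted p = 6.15e-05). Rrm2 reached 193, 203 and 195 FPKM (0.70 ± 0.08 SE, adjusted p = 0.000475) and Rrm1 118, 120 and 112 FPKM (0.44). The D2 values of these 3 genes lay above all their D1 values. Hprt reached 176 ± 3.30 FPKM (0.36 ± 0.04 SE, adjusted p = 0.000303), Psph 23.6 ± 1.98 (0.34 ± 0.06 SE, adjusted p = 0.00479), Dut 82.1 ± 4.04 (0.28), Mthfd1l 58.8, 69.2 and 63.7 (0.27) and Dck 37.8 ± 0.79 (0.19), with adjusted p between 0.000303 and 0.0150.

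The falls were largest in purine synthesis and its folate supply. Pfas fell by 0.70 (SE 0.07, adjusted p = 0.000417), from 27.4, 30.3 and 29.9 FPKM at D1 to 17.3, 19.6 and 16.2 FPKM at D2. Gart fell by 0.68, to 73.0, 75.1 and 64.2 FPKM. Mthfd1 fell by 0.65 (SE 0.05, adjusted p = 0.000130), to 55.3, 58.5 and 52.1 FPKM. Each of these stayed above its D0 level in every mouse. Cad fell by 0.64 (SE 0.07, adjusted p = 0.000466), to 42.3, 48.8 and 41.0 FPKM, Shmt1 by 0.59, to 39.3 ± 3.34 FPKM, Ppat by 0.58, to 32.1, 30.8 and 27.1 FPKM, and Adsl by 0.56, to 33.9 ± 2.66 FPKM. Umps and Atic fell by 0.45, to 34.1 ± 2.44 and 120 ± 6.91 FPKM. Prps1 fell by 0.39 (SE 0.04, adjusted p = 0.000272), Nme1 by 0.39 (SE 0.05, adjusted p = 0.000710), Shmt2 by 0.36 and Aprt by 0.33, to 41.0 ± 1.08, 183 ± 6.84, 142 ± 7.32 and 122 ± 7.82 FPKM. Gmps, at 27.7 ± 1.16 FPKM, fell by 0.19 (SE 0.04, adjusted p = 0.00734).

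Of the called falls, 4 rested on narrow margins. Mthfd2 was at 66.2 ± 3.22 FPKM at D2 (-0.19, adjusted p = 0.0256), Nme2 at 607 ± 27.4 (-0.19, adjusted p = 0.0318), Prps2 at 28.7 ± 0.61 (-0.14, adjusted p = 0.0148) and Dhodh at 12.8 ± 0.87 (-0.24, adjusted p = 0.0449). With the mouse number as a block, the adjusted p was 0.0734 for Mthfd2, 0.0870 for Nme2 and 0.0505 for Prps2. Median ratio scaling of the libraries took all 4 above the threshold, with adjusted p from 0.111 to 0.162. Without control mouse 2 at D1 alone, none of the 4 was called (adjusted p from 0.0564 to 0.138), nor was Dck among the rises (0.0567). Other single libraries of D1 or D2 also took Mthfd2, Nme2 and Dhodh above the threshold, as did control mouse 1 at D1 for Prps2 and Dck. The 8 genes not called were Phgdh (175 ± 17.5 FPKM at D2), Psat1 (113 ± 7.17), Paics (155 ± 6.82), Impdh1, Impdh2 (274 ± 14.6), Ctps2 (7.07 ± 0.20), Tyms (23.0 ± 0.74) and Dtymk (100.4 ± 7.84). Of these, Psat1 had the smallest adjusted p (0.0689), with D2 values of 120, 111 and 106 FPKM all above its D1 values, and it was called higher with median ratio scaling (adjusted p = 0.0287). Phgdh was called lower without control mouse 1 at D2 (-0.23, adjusted p = 0.0185). The signs of Tyms and Ctps2 turned with scaling.

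**Figure D2:**
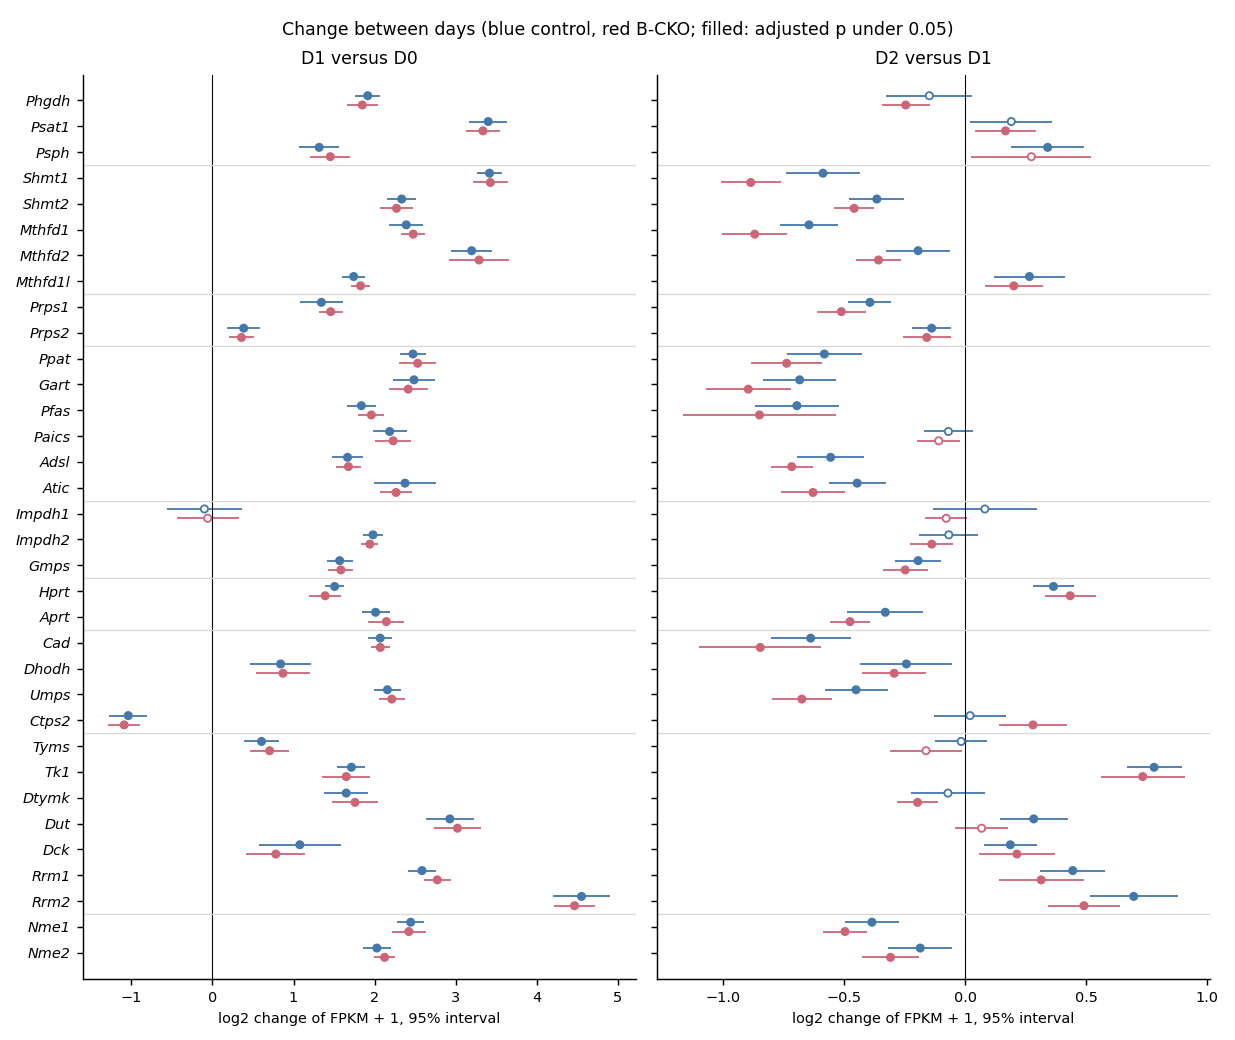
Change on the log2 scale of FPKM + 1 with its 95% interval, for each gene, from D0 to D1 (left) and from D1 to D2 (right). Blue is control and red B-CKO, filled points have an adjusted p under 0.05, and grey lines separate the roles. The left panel lies right of 0 except for Ctps2 and Impdh1, and in the right panel the S phase genes Tk1, Rrm1 and Rrm2 lie right of 0 and the 6 de novo purine genes left of it.

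Several pairs of related genes shifted within the folate pathway over the same days. Mthfd2 relative to Mthfd1 was higher at each step, with a ratio of 0.398 to 0.544 at D0, 0.849 to 0.893 at D1 and 1.14 to 1.25 at D2 in control mice. Mthfd1l relative to Mthfd1 went down and up, from 0.844 to 1.10 at D0 to 0.595 to 0.622 at D1 and 1.06 to 1.22 at D2. Ranges of neighbouring days did not overlap for either ratio, while the D0 and D2 ranges of Mthfd1l to Mthfd1 overlapped. The coding sequences of these pairs are 61.6% and 64.9% identical over the aligned bases. In B-CKO mice the same ratios were 0.353 to 0.576, 0.873 to 0.920 and 1.19 to 1.45 for Mthfd2, and 0.843 to 1.02, 0.578 to 0.580 and 1.18 to 1.26 for Mthfd1l.

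**Figure D3:**
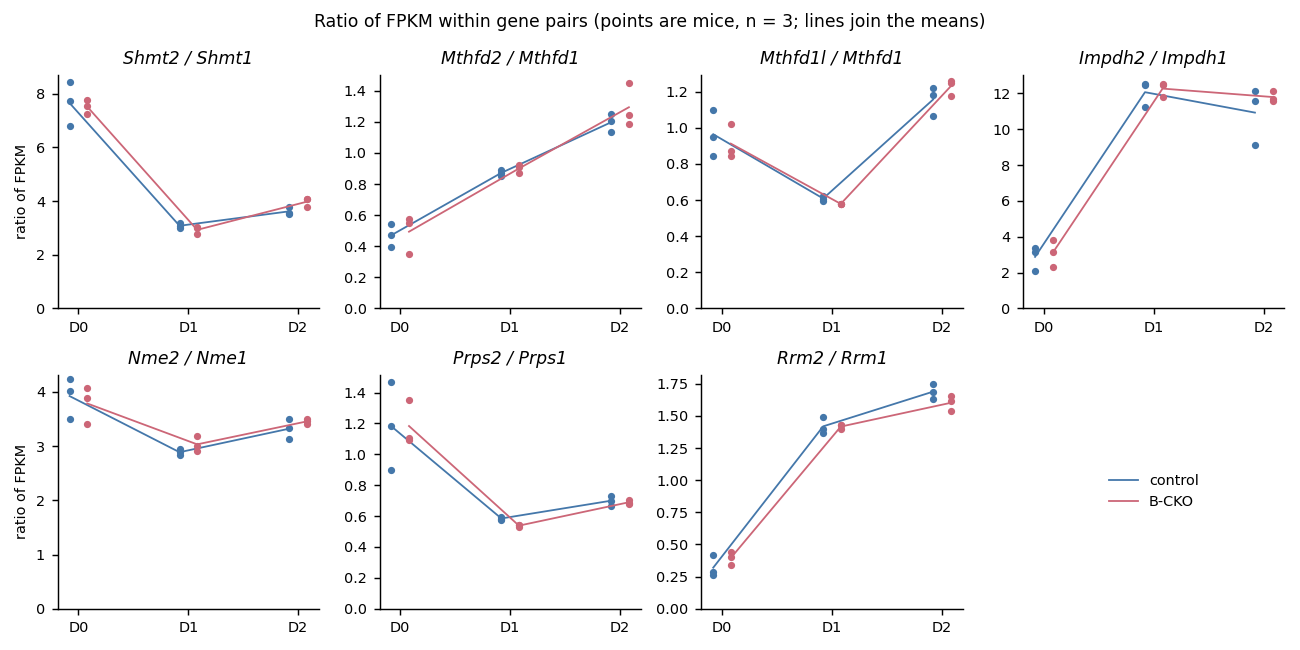
Ratio of FPKM within 7 pairs of genes at D0, D1 and D2. Points are single mice (3 per group), lines join the means, blue is control and red B-CKO. The Impdh2 to Impdh1 ratio of control mice went from 2.10 to 3.37 at D0 to 11.2 to 12.5 at D1, while Shmt2 to Shmt1 went from 6.79 to 8.43 to 3.01 to 3.17.

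In B-CKO cells, of the 34 genes 8 were called higher from D1 to D2, 21 lower and 5 not called, where 21.7% of 15253 genes tested were called higher and 24.0% lower. The median change was -0.25. Of the 7 genes of deoxynucleotide supply, 4 were called higher and 1 lower. The call differed from that in control for 7 genes. Phgdh (-0.25 ± 0.04 SE, adjusted p = 0.00286), Impdh2 (-0.14 ± 0.04, 0.0203) and Dtymk (-0.20 ± 0.04, 0.00414) were called lower in B-CKO only, against -0.15, -0.07 and -0.07 in control. Psat1 (0.17 ± 0.05 SE, adjusted p = 0.0368) and Ctps2 (0.28 ± 0.06, 0.00720) were called higher in B-CKO only, against 0.19 and 0.02 in control. Psph (0.27 ± 0.10 SE, adjusted p = 0.0726) and Dut (0.07 ± 0.05, 0.296) were called higher in control only, with 0.34 and 0.28 there. In 1 fit of all 18 libraries Dtymk was not called in B-CKO (adjusted p = 0.208) nor Dut in control cells (0.0722), and with median ratio scaling Impdh2 was not called in B-CKO (0.248). With the mouse as a block the adjusted p in B-CKO was 0.0953 for Psat1 and 0.0553 for Impdh2. After rescaling to TPM 5 genes were called higher, and without B-CKO mouse 1 or 2 at D1 only Hprt, Ctps2, Tk1 and Rrm2 were. Psph was called higher without B-CKO mouse 2 at D2 (adjusted p = 0.0113), and Impdh2 was not called without B-CKO mouse 2 or 3 at D1 (0.0696 and 0.0705). Leaving out any single library but B-CKO mouse 2 at D2 took Psat1 above the threshold (0.0551 to 0.118). A call in one genotype only does not show a difference between them, which was tested by itself.

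Whether loss of Zbtb24 changed these genes was tested on each day. At D0 no gene of the 34 was called (differences from -0.08 for Pfas to 0.39 for Dck), none had an unadjusted p under 0.05, and 0% of 15641 genes tested were called. Of the 34 differences 27 were positive, with a median of 0.06 against -0.00 over all genes tested. The shares of all genes with an unadjusted p under 0.05 were 0.901% higher and 1.10% lower. The smallest unadjusted p values were those of Impdh2 (0.0863), Umps (0.163) and Dck (0.165), each with an adjusted p of 1.0. Impdh2 was at 69.8 to 73.4 FPKM in control and 77.1 to 79.5 in B-CKO mice (difference 0.12, SE 0.06, 95% interval -0.02 to 0.27), and Umps at 9.04 to 10.2 against 10.4 to 11.9 FPKM (0.16, SE 0.10, 95% interval -0.09 to 0.42). These 2 genes were the only ones of the 34 with every B-CKO mouse above every control mouse, which held for 1.92% of all genes, and 1.94% had every B-CKO mouse below. Dck was at 10.6 to 19.2 FPKM in control and 16.2 to 24.6 in B-CKO mice, and its difference of 0.39 had an SE of 0.25 and an interval that ran from -0.21 to 0.99. With the replicate number as a block, an unadjusted p under 0.05 was reached by Dck, Gart, Atic and Impdh2, and by 424 genes higher and 467 lower of all 15641. The smallest adjusted p of a member was then 0.787, that of Dck (SE 0.08, 95% interval 0.18 to 0.60), which was higher in the B-CKO mouse of each of the 3 numbers (20.5 against 17.1, 24.6 against 19.2 and 16.2 against 10.6 FPKM).

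At D1 most of the differences were positive and small, as they were at D0. No gene was called, where 0.0993% of 15104 genes tested were. Of the 34 differences 32 were positive, with a median of 0.09 on the log2 scale against -0.00 over all genes tested. An unadjusted p under 0.05 was reached by 14 genes, all of them higher, where 6.79% of all genes reached it higher and 9.51% lower. The count was 9 without control mouse 1 or without B-CKO mouse 2, and 2 in 1 fit of all 18 libraries, in which 236 genes reached it higher and 480 lower of 16545. Every B-CKO mouse lay above every control mouse for 16 genes and below for 0, against 8.43% and 11.7% of all genes. The 16 were Shmt1, Shmt2, Mthfd1, Mthfd2, Mthfd1l, Prps1, Ppat, Gart, Paics, Atic, Impdh2, Aprt, Umps, Dtymk, Dut and Nme2. The summed level of the 34 genes was 3473 to 3718 FPKM in control and 3814 to 3943 FPKM in B-CKO mice.

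Umps had the smallest p at D1. It was at 45.3, 48.0 and 47.3 FPKM in control and 54.5, 53.5 and 56.2 FPKM in B-CKO mice, a difference of 0.22 (SE 0.03, 95% interval 0.14 to 0.29, adjusted p = 0.0681). Mthfd1 was at 83.3, 89.8 and 87.9 against 95.8, 96.5 and 96.3 FPKM (0.14, SE 0.03, adjusted p = 0.113). Gart was at 109, 115 and 118 against 125, 125 and 127 FPKM (0.14, SE 0.03, adjusted p = 0.131). The B-CKO values of each gene lay above all its control values, and the B-CKO means were 1.10 to 1.17 times the control means. Umps was the only gene of the 34 called under any alternative: tested only among the 9711 genes that averaged 1 FPKM or more, its adjusted p was 0.0162, and 0.947% of those genes were called higher and 3.05% lower. The B cell markers moved the other way at D1, with a sum of 2351 to 2530 FPKM in control and 2045 to 2120 FPKM in B-CKO mice, and of the T cell markers Cd2 was at 25.8 to 28.1 against 19.97 to 22.6 FPKM and Lck at 11.2 to 13.3 against 8.24 to 9.31 FPKM. The other 6 T cell markers were each under 1 FPKM, with ranges that overlapped between the genotypes. The part of these markers in these differences was not tested. The highest upper end of a 95% interval among the 34 genes was that of Dut (0.342).

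At D2 the signs were mixed. No gene was called, where 0.0460% of 15210 genes tested were, 13 differences were positive and 21 negative, and the median was -0.01. The signs turned with scaling: 9 were positive after rescaling to TPM and 18 with median ratio scaling. An unadjusted p under 0.05 was reached by Ctps2 and Dck, both higher, where 3.57% of all genes reached it higher and 4.14% lower. Ctps2 was at 7.30, 6.99 and 6.93 FPKM in control and 8.40, 7.83 and 8.50 in B-CKO mice (0.19, SE 0.06, 95% interval 0.05 to 0.34, adjusted p = 0.487). Dck was at 36.9, 38.4 and 38.2 against 40.4, 43.6 and 39.7 FPKM (0.12, SE 0.05, adjusted p = 0.593). Shmt1, next by p, was at 41.4, 41.0 and 35.4 against 35.1, 36.5 and 33.02 FPKM (-0.16, SE 0.07, adjusted p = 0.653). Every B-CKO mouse lay above every control mouse for Hprt, Ctps2 and Dck and below for Rrm2, against 4.89% and 6.24% of all genes.

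**Figure D4:**
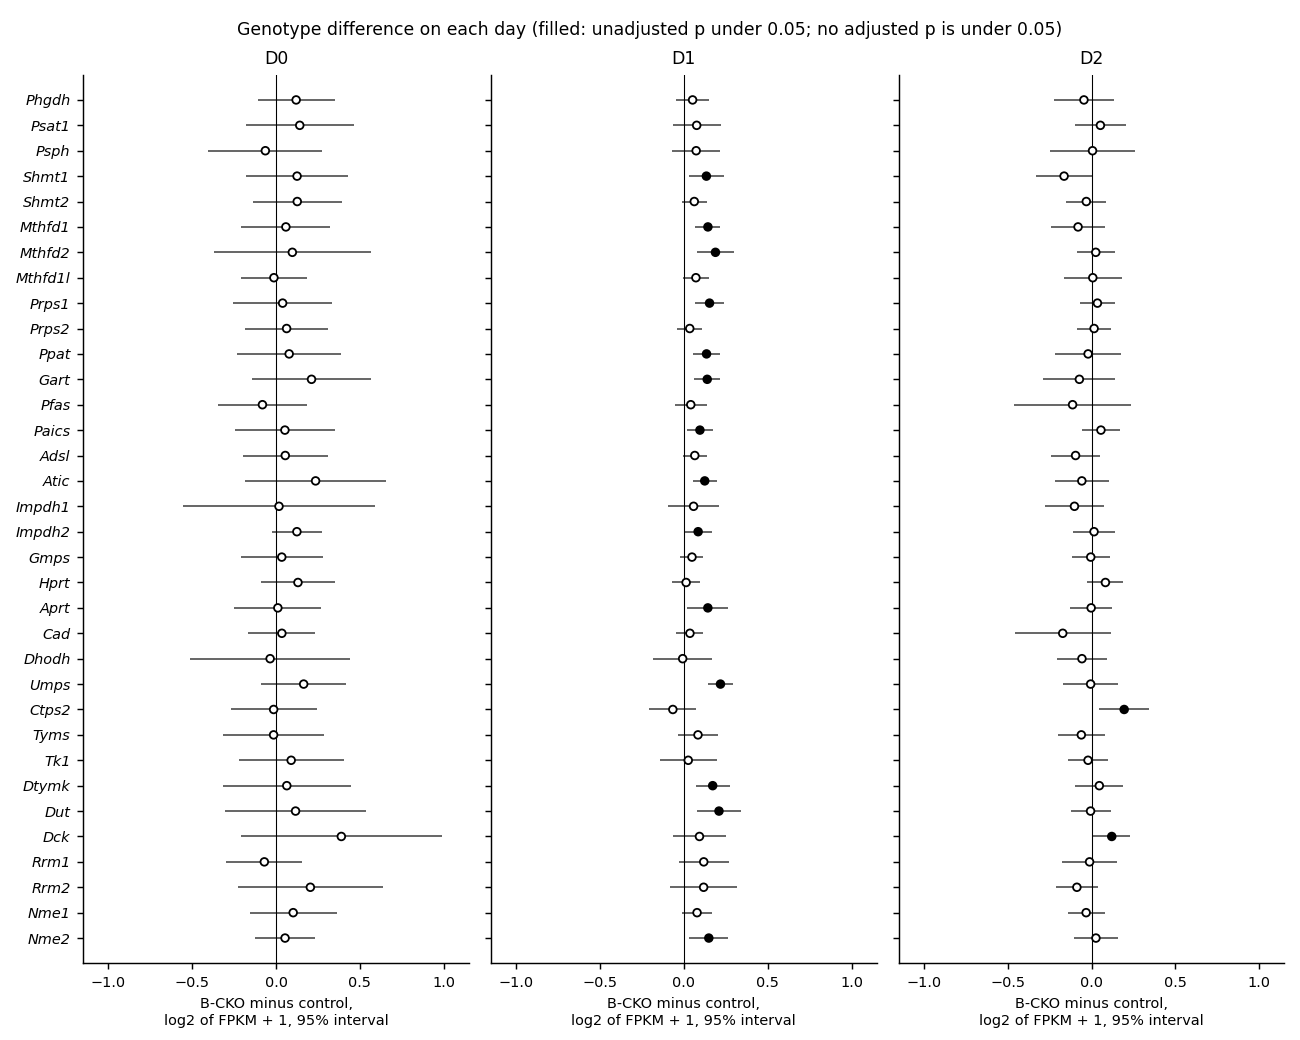
Difference between B-CKO and control on the log2 scale of FPKM + 1, with its 95% interval, for each gene at D0, D1 and D2 (3 mice per genotype). Filled points have an unadjusted p under 0.05. Intervals are mostly widest at D0. Of the 34 points 27 lie right of 0 at D0, 32 at D1 and 13 at D2.

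The change over time was also compared between the genotypes directly. For the step from D0 to D1 no gene of the 34 was called, 0% of 16182 genes tested were, and none of the 34 had an unadjusted p under 0.05, which 1.38% of all genes reached higher in B-CKO and 1.51% lower. The smallest p values belonged to Rrm1 (0.0828), Pfas (0.196) and Mthfd1l (0.210), with differences of 0.19 (95% interval -0.03 to 0.41), 0.12 (-0.07 to 0.32) and 0.09 (-0.06 to 0.23) and an adjusted p of 1.0 each. For the step from D1 to D2 no gene was called either, nor any of the 15844 genes tested (0%). Here 31 of the 34 differences were negative, with a median of -0.12 against 0.00 over all genes tested, and 8 had an unadjusted p under 0.05, 7 of them lower in B-CKO and 1 higher, where 3.93% of all genes reached it higher and 3.38% lower. That count of 8 was 3 in 1 fit of all 18 libraries and 5 with the mouse as a block. It was 4 or 5 without control mouse 1 at D1, control mouse 1 or 2 at D2, or B-CKO mouse 2 or 3 at D1, and 13 or 14 without control mouse 2 at D1 or control mouse 3 at D2. Shmt1 (-0.30, 95% interval -0.49 to -0.10, adjusted p = 0.549), Ctps2 (0.26, 0.09 to 0.43, adjusted p = 0.578) and Umps (-0.22, -0.40 to -0.05, adjusted p = 0.610) had the smallest p values. This comparison uses the same D1 libraries as the D1 genotype test.

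Other genes of these pathways moved less uniformly. Of 71 further genes for folate and methionine metabolism, nucleotide interconversion, salvage, breakdown and nucleoside transport, 69 were in the table. In control cells at D1, 34 of the 66 tested were called higher and 13 lower, with a median change of 0.33, and at D2 10 of 69 were called higher and 28 lower. Over all genes tested the shares were 26.7% and 30.7% at D1 and 20.1% and 24.8% at D2. A large rise at D1 was that of Dctpp1, a pyrophosphatase that clears dCTP and its modified forms, from 9.19 to 14.3 FPKM to 102 to 120 FPKM (3.16 ± 0.15 SE, adjusted p = 1.55e-05). The largest falls were those of Tk2, the mitochondrial thymidine kinase, from 44.8 to 49.1 FPKM to 8.20 to 9.73 FPKM (-2.30 ± 0.08 SE), and of Ampd3, an AMP deaminase, from 4.74 to 6.04 FPKM to 1.28 to 1.45 FPKM (-1.45). In the genotype tests no gene of this list was called on any day. At an unadjusted p under 0.05 the counts were 0 at D0, 9 higher and 3 lower at D1, and 2 higher and 5 lower at D2, against 6.79% and 9.51% of all genes at D1 and 3.57% and 4.14% at D2.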

How the data were processed

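RNA from purified splenic B cells of 18 libraries was sequenced as paired ends, on an MGI2000 instrument per the labels and on a HiSeq or Novaseq platform by the study's methods. The authors mapped reads to mm10 with Bowtie2, estimated abundance with Cufflinks and RSEM and deposited gene-level FPKM values. The submitters' processing notes also name BWA and DESeq2, without versions. Read counts and depth were not used here and could not be recovered from the steps of low FPKM values, so no interval that needs depth is given, and the count test of the study's methods (DESeq2) was not repeated. Whether counting used strand is not given in the sources used here.

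FPKM was taken as log2(FPKM + 1). Each comparison was fitted to its own libraries over genes above 0 FPKM in any of them, with limma 3.58.1 in R 4.3.3 (empirical Bayes with trend, two-sided, Benjamini-Hochberg adjustment over all genes of the fit, threshold 0.05). The fits were tested on simulated data. A pseudocount of 0.1, a minimum mean of 1 FPKM, TPM, median ratio scaling, a replicate block, 1 fit of all 18 libraries, robust empirical Bayes and leaving out each library were tried as alternatives. Gene IDs were named through RefSeq, which matched 16512 of 16545.

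Replicates were 1 mouse each. Labels give both genotypes and all days the numbers 1 to 3. Deviations of same-numbered libraries correlated between genotypes at D0 (r = 0.85, 0.47 and 0.79), so the numbers paired them there. They did so less at D1 (0.10, 0.20 and 0.091) and D2 (-0.038, 0.22 and 0.23). Within a genotype the number was taken as the mouse, since titles carry it through the days. Deviations of same-numbered libraries correlated weakly between days. In control cells r was 0.042, 0.035 and 0.044 for D0 with D1, and -0.066, 0.15 and 0.078 for D1 with D2. In B-CKO cells r was 0.051, 0.055 and 0.044 for D0 with D1, and 0.13, 0.18 and 0.12 for D1 with D2.

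All 34 genes were named with their levels. Change, SE or interval and adjusted p were given for the largest change of each role in control cells, for members whose B-CKO call differed from control, and for the 3 smallest p values of each genotype comparison, and other members were given by their change or range. The members and the lists were chosen with earlier results of these data known. Some items are not reported here.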

Additional observations from a re-analysis of the deposited data

How the results depend on the processing

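At D1 against D0 the counts were 32 higher and 1 lower in both genotypes under every alternative run. Of 126 counts under alternatives that kept all libraries, 124 stayed within 1.5 times the reported count. The others were 1 gene higher in B-CKO cells at D1 with a mean of at least 1 FPKM, against 0, and 5 genes higher in B-CKO cells at D2 against D1 under TPM, against 8. Leaving out single libraries gave 4 to 8 genes higher and 19 to 22 lower in that comparison, 7 to 8 higher and 14 to 18 lower in control cells, and 0 in all genotype comparisons. A few estimates near 0 changed sign. Impdh1 in control cells at D1 against D0 ranged from -0.24 to 0.11 over left-out libraries. At D2 against D1 in control cells Ctps2 was -0.019 under TPM and ranged from -0.029 to 0.056, and Tyms was 0.048 with median ratio scaling and ranged from -0.053 to 0.00924. The cause was not tested. With the replicate block the counts at D2 against D1 were 8 higher and 15 lower in control cells and 6 higher and 20 lower in B-CKO cells, and the block changed no call of the genotype comparisons. Adding 1 to FPKM moved the Shmt2 to Shmt1 log2 ratio of control cells at D0 from 2.93 to 2.69. Without depth, the precision of low values such as Rrm2 at D0 rests on the 3 mice alone.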
